A study of Homo sapiens with 15 samples.

Results

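The H2A.Z library comes from MDA-MB-231, an established human cell line grown from a triple-negative breast cancer, and is described here by how its peaks lie along the 22 autosomes. Chromatin from sonicated nuclei was immunoprecipitated with an antibody to H2A.Z (abcam ab4174) and sequenced (ChIP-seq). The labels give no knockdown or treatment for this sample. The members were all peaks of the deposited H2A.Z list on chromosomes 1 to 22, which were 37895 of the 38584 peaks in the list and of the 647617 peaks in the 4 lists of the series. The remaining 633 lay on X and 56 on Y. Of the 15 samples in the series, 11 were not analysed here. There was 1 H2A.Z library and no replicate, and read depth was unknown, so every interval below covers counting error over peaks only and no p-value is given.

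H2A.Z is a variant of histone H2A that replaces it in some nucleosomes. It is placed by the SRCAP and TIP60/p400 complexes, both of which contain the ATPases RUVBL1 and RUVBL2. In human cells it is known for the nucleosomes on either side of the open stretch at active gene starts and for enhancers, so that a gene-dense segment can carry many separate H2A.Z sites. The series is about LOXL2, an enzyme that oxidises lysine 4 of histone H3, and chromatin compaction.

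The list was one of many narrow peaks, most of them near the lowest score. The autosomal peaks covered 34.4 Mb, or 1.23% of the 2789 Mb that lie between the first and the last peak of each chromosome, at 13.6 peaks per Mb. The median width was 811 bp, with quartiles of 671 and 1006 bp, and 2.12% of peaks were wider than 2000 bp. The score is a deposited value per peak, from the authors' caller, and its unit is not known. It ran from 50, the lowest in the list, to 3100, with a median of 66.8 and quartiles of 56.2 and 92.0, and 36.0% of peaks scored below 60. Wider peaks scored higher (Spearman 0.70 across 37895 peaks, which come from one library and are not independent).

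Neighbouring H2A.Z peaks lay closer together than positions placed at random on the same chromosome. The gap between 2 neighbours was counted from the end of one peak to the start of the next, over 37873 pairs of neighbours. The median gap was 25.2 kb, against 47.1 kb calculated for the same peaks spread uniformly between the outermost peaks of each chromosome. The shortest 5% of gaps were 0.621 kb or less, against 3.32 kb at random. At the other end the order turned: the longest 5% were over 292.8 kb, against 228.8 kb at random. The list therefore held both more short gaps and more long ones than a uniform spread, and fewer of 20 to 200 kb.

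Gaps of at most 10 kb made up 31.7% of all gaps (12009, 95% Wilson interval 31.2 to 32.2), against 14.2% at random, a 2.23-fold difference. The excess was larger at shorter gaps. It was 4.59-fold for gaps of at most 1 kb (7.06% against 1.54%) and 5.49-fold for gaps of at most 0.5 kb (4.24% against 0.773%). It was 1.73-fold at 20 kb and 1.26-fold at 50 kb. Bin by bin, gaps of 10 to 20 kb were still 1.13 times as frequent as at random, and those of 20 to 50 kb were 0.79 times as frequent.

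**Figure D1:**
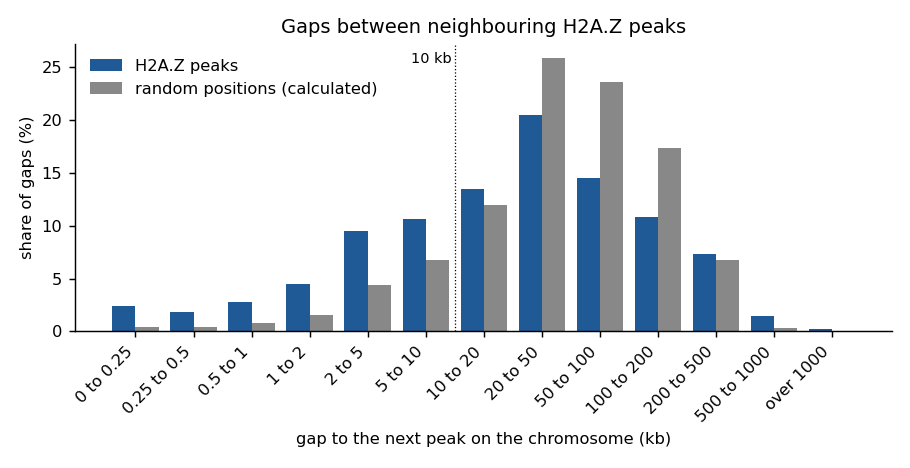
Share of gaps between neighbouring H2A.Z peaks (y axis, %) in bins of gap length (x axis, kb), for the autosomal peaks (blue) and for random positions by calculation (grey). Blue exceeds grey in each bin up to 20 kb, grey exceeds blue from 20 to 200 kb, and blue exceeds grey again above 200 kb.

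The excess was smaller against random positions at the local density. When each peak's random neighbour was calculated from the density of its own 1 Mb window, 20.5% of gaps were at most 10 kb and the excess fell to 1.55-fold. At 1 kb it was 2.91-fold and at 50 kb it was 1.09-fold. Peaks therefore lay closer than random also within windows, mainly at gaps below 10 kb.

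The shortest gaps joined peaks that all but touched. Peaks of the list never overlapped, but 459 gaps were at most 100 bp and 52 were at most 10 bp. Gaps of up to 100 bp numbered 4.59 per bp of gap length, against 3.05 per bp for gaps of 100 to 200 bp. The peaks beside the 459 gaps had a median width of 955 bp and a median score of 81.8. Whether such neighbours were 1 enriched stretch divided by the caller was not tested. Merging neighbours at gaps of at most 1 kb left 35221 peaks, and gaps of at most 10 kb were then 2.03-fold more frequent than at random.

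Counting all pairs of peaks, not only neighbours, gave the distances up to which pairs exceeded random positions. The random values take a single density per chromosome, and the part of regional density in these ratios was not tested. Pairs with centres 1 to 2 kb apart were 3.78 times as frequent as at random positions, and those 5 to 10 kb apart 2.68 times. The ratio was 1.98 at 20 to 50 kb, 1.59 at 100 to 200 kb, 1.34 at 500 to 1000 kb and 1.25 at 1 to 2 Mb. It reached 1.10 at 5 to 10 Mb and 0.999 at 10 to 20 Mb. Up to 1 Mb the ratio was above 1 on each of the 22 autosomes, and at 10 to 20 Mb on 15 of them. At 1 to 2 kb chromosome 6 had the lowest ratio (2.78) and chromosome 16 the highest (7.17).

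**Figure D2:**
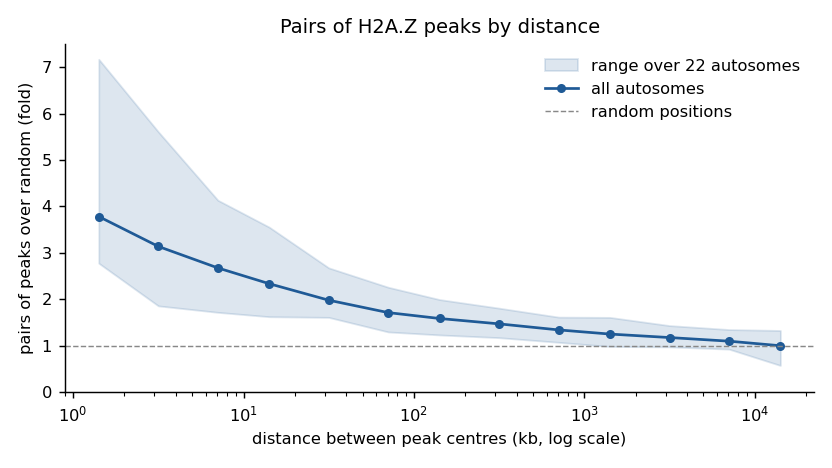
Pairs of H2A.Z peaks relative to random positions (y axis, fold) by the distance between their centres (x axis, kb, log scale). The line joins the values over all autosomes, the band spans the lowest and highest autosome, and the line falls from 3.78 at 1 to 2 kb to 0.999 at 10 to 20 Mb.

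Peaks at gaps of at most 10 kb were joined into clusters, and close to equal numbers of peaks were clustered and single. Clusters held 18475 peaks (48.8%, 95% Wilson interval 48.25 to 49.3), against 26.1% calculated for random positions and 34.9% for random positions at the density of the own window. The other 19420 peaks were single, that is without a neighbour within 10 kb on either side. The limit marks no break in the list: 698 gaps were of 9 to 10 kb and 633 of 10 to 11 kb, and the peaks beside them had median widths of 828 and 832 bp and median scores of 67.4 and 68.8.

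There were 6466 clusters, with a mean of 2.86 peaks. As a ratio to random positions, the excess rose with the size of the cluster. Pairs numbered 4037, close to the 3814 of the random calculation (1.06-fold). Clusters of 3 numbered 1255 against 578.8 (2.17-fold), those of 4 to 5 numbered 768 against 120.2 (6.39-fold), and those of 6 to 9 numbered 319 against 6.28 (50.8-fold). Of 10 or more peaks there were 87, against 0.043 by calculation. These random counts take a single density per chromosome, and none was calculated for cluster sizes at the density of the own window. The part of regional density in the excess of large clusters was thus not tested. The median cluster spanned 7.76 kb with quartiles of 4.35 and 11.7 kb, and 45 clusters spanned more than 50 kb. All clusters together spanned 63.7 Mb, or 2.28% of the 2789 Mb between first and last peaks.

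Gaps inside clusters were shorter in larger clusters. Inside clusters the median gap was 3.63 kb in pairs, 3.25 kb in clusters of 4 to 5 and 2.07 kb in those of 10 or more. The covered part of the span showed no such order: its median was 32.4% in pairs, 26.2% in clusters of 3, 24.8% in those of 4 to 5, 27.3% in those of 6 to 9 and 31.4% in those of 10 or more. Clusters themselves lay near other clusters: of 6444 gaps between neighbouring clusters, 28.4% were at most 50 kb, against 11.2% for clusters placed at random (2.53-fold), and at 500 kb the ratio was 1.09.

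Clustered peaks were wider than single ones. The median width was 860 bp in clusters (quartiles 701 and 1095 bp) and 771 bp for single peaks (quartiles 647 and 933 bp). Of the clustered peaks, 63.6% (95% Wilson interval 62.9 to 64.3) were wider than the median single peak. The widths of both classes overlapped broadly. The clustered median was the larger on each of the 22 autosomes, by 24 bp on chromosome 13 and up to 142.5 bp on chromosome 12. Very wide peaks were mostly clustered: 81.1% of the 804 peaks of 2000 bp or more lay in clusters, against 36.7% of those from 400 to 600 bp.

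Clustered peaks also scored higher, with a median of 70.8 against 63.8 for single peaks. The median single score was exceeded by 61.0% of clustered peaks (95% Wilson interval 60.3 to 61.7). The clustered median was the higher on each of the 22 autosomes, by 3.38 on chromosome 18 and up to 11.8 on chromosome 20. In the lowest of 10 score groups of equal size 40.7% of peaks were clustered, and in the highest 62.6%.

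At matched width the difference in score was small or turned. Within 8 bands of width, from 400 bp up, the clustered median score was above the single one in 4, and the differences ran from -23.1 to 1.23. Among peaks of 1500 to 2000 bp only 43.5% of clustered peaks exceeded the single median. In contrast, within each of the 10 score groups clustered peaks were wider, by 10 bp in group 2 up to 177.5 bp in group 10.

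Width and score rose with the size of the cluster. Single peaks had a median width of 771 bp, pairs 821 bp, clusters of 3 had 858 bp, those of 4 to 5 had 879 bp, those of 6 to 9 had 942 bp and those of 10 or more 1050 bp. Median scores over the same classes were 63.8, 67.3, 71.1, 74.1, 76.6 and 82.4. The lower quartile of the score hardly moved, from 55.2 for single peaks to 60.3 in clusters of 10 or more, while the upper quartile went from 84.4 to 131.8. Large clusters thus held many peaks of low score beside a few of high score. The share of peaks wider than 2000 bp was 0.778% among single peaks and 12.8% in clusters of 10 or more.

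**Figure D3:**
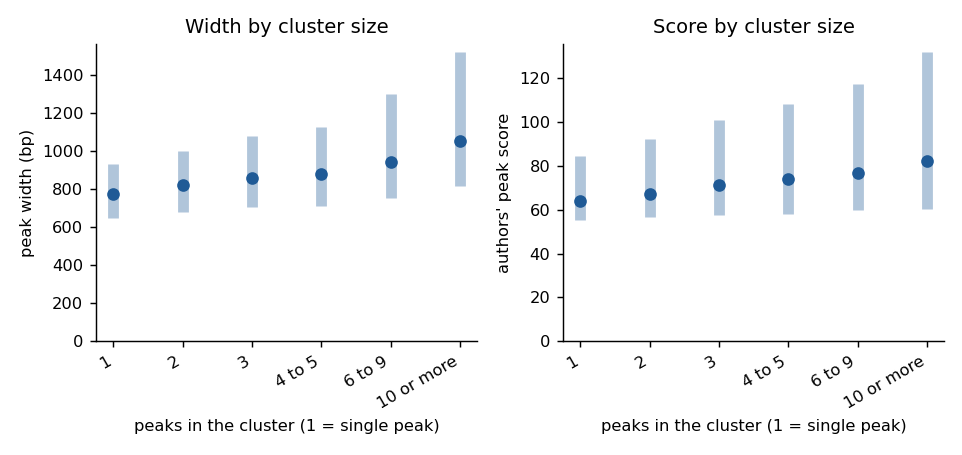
Peak width (left, bp) and the authors' peak score (right) by the number of peaks in the cluster (x axis, 1 for single peaks), with the median as a point and the quartiles as a bar. Medians rise from 771 to 1050 bp and from 63.8 to 82.4, and the bars of neighbouring classes overlap.

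The same gradient ran beyond the 10 kb limit. Peaks whose nearest neighbour was at most 0.5 kb away had a median width of 933 bp and a median score of 77.9. At 5 to 10 kb the medians were 829 bp and 67.8, at 20 to 50 kb 782 bp and 64.4, and at 200 to 500 kb 700 bp and 60.9. Only 55 peaks were more than 500 kb from a neighbour, and their median width was 737 bp.

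Neighbours resembled each other little in score. Across neighbours at most 0.5 kb apart the Spearman correlation of scores was 0.18 (1606 pairs) and that of widths 0.30. At 5 to 10 kb they were 0.052 and 0.16 (4036 pairs), and beyond 200 kb 0.0073 and 0.062 (3419 pairs). These are descriptions within one library. In the closest pairs the higher score had a median of 106.1 and the lower one 63.4, and beyond 200 kb they were 74.1 and 55.45. Sorting a pair into higher and lower gives a difference at any distance, so these medians do not measure likeness.

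Within clusters, the ends and the inside differed little. In 2429 clusters of 3 or more peaks, the 4858 peaks at an end had a median width of 880 bp and a median score of 73.9, and the 5543 inner peaks had 914 bp and 74.4. These pooled medians mix cluster sizes. At matched size, end peaks were narrower in clusters of 3 (855 against 869 bp). They were wider in those of 4 to 5 (885 against 873 bp) and 6 to 9 (944.5 against 938 bp). In those of 10 or more they were wider too (1078 against 1047 bp). Median scores at the ends and inside were 70.8 and 72.2, 77.0 and 71.8, 76.4 and 76.6, and 88.4 and 81.5 in that order. The best-scoring peak stood at an end in 55.2% of the 2429 clusters, against 53.7% if each peak were equally likely to be the best. In clusters of 10 or more it did so in 18.4%, against 16.3%. The best peak scored a median of 1.39 times the next best in clusters of 4 to 5, and 1.41 times in clusters of 10 or more.

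Clusters with the most peaks, by position in hg19, lay on chromosomes 1, 11, 12, 14, 19 and 20. They are named by position alone, with no annotation of genes. A pair of clusters held 21 peaks each. That on chromosome 12, 120707098 to 120769099, spanned 62.0 kb, and its peaks covered 48.1% of it. Its widths ran from 745 to 2732 bp with a median of 1319 bp, and its scores from 55.6 to 959.3 with a median of 89.98. The best peak was also the widest, at 120738845 to 120741576.

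That on chromosome 1, 28615810 to 28705078, spanned 89.3 kb with a median gap of 1.54 kb. Its scores ran from 52.9 to 753.2 with a median of 109.6, and the best peak lay at 28677320 to 28680310 (2991 bp wide). The peaks at both ends of this cluster were narrow, at 609 and 723 bp.

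Of 20 peaks each were the clusters on chromosome 20 at 30177446 to 30245139 (best score 365.3), on chromosome 19 at 14322185 to 14406877 (best score 283.1) and on chromosome 19 at 18434279 to 18527747 (best score 355.1). The last of these was the longest cluster of all, at 93.5 kb, and its best peak was 4498 bp wide. Clusters of 19 peaks lay on chromosome 11 at 9336357 to 9406197, on chromosome 14 at 21738127 to 21811980 and on chromosome 19 at 14117550 to 14191919. On chromosome 12, a second cluster, at 122085696 to 122150086, held 18 peaks at a median gap of 0.847 kb. The densest of the 10 was on chromosome 1 at 228744140 to 228782974, with 17 peaks in 38.8 kb, a median gap of 0.376 kb and 58.1% of its span covered. The starts of its peaks were spaced in near multiples of 1131 bp, and whether they lie in copies of a repeated sequence, and so are not separate sites, was not tested.

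Some of these clusters had further peaks little beyond the 10 kb limit. The nearest peaks outside the cluster on chromosome 19 at 14322185, the third in length at 84.7 kb, were 14.5 kb before it and 13.5 kb after it. For the cluster on chromosome 20 they were at 14.4 and 22.3 kb, and for the densest one on chromosome 1 at 69.3 and 64.4 kb.

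The 5 clusters that held the best single scores had 3 to 9 peaks, and in 3 of the 5 no peak was wider than 1067 bp. On chromosome 5, a cluster of 3 peaks at 126110078 to 126113961 held the best score of the list, 3100, in a peak of 1011 bp. Its other peaks scored 63.1 and 187.4. After a gap of 26.4 kb followed a cluster of 9 at 126140314 to 126168746, with scores from 626.4 to 3006 and a median of 1197. The peaks of this cluster were only 464 to 1067 bp wide, although high scores elsewhere went with wide peaks: the 106 autosomal peaks with a score of 600 or more had a median width of 2083 bp. Of those 106, only 13 were at most 1100 bp wide, and 10 of the 13 were these peaks on chromosome 5.

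The other best-scoring clusters had a single high peak each. On chromosome 3, at 190572892 to 190579066, the peak scores were 2197, 92.1 and 267.7. On chromosome 3, at 47823940 to 47844052, 1 of 6 peaks scored 1408 (2664 bp wide) and the others between 62.1 and 114.2. On chromosome 19, at 10809042 to 10828294, 1 of 5 peaks scored 1374 (3422 bp wide) and the others between 55.1 and 151.8. Of the 106 peaks of score 600 or more, 84 (79.2%) were clustered, in 74 clusters, and 22 were single.

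Of the 5 best-scoring single peaks, 2 stood beside long stretches without peaks and 1 at the start of a chromosome. That on chromosome 5 at 9851 to 11946 (score 2987) was the first peak of the chromosome and had its neighbour 11.3 kb away, just beyond the limit. That on chromosome 18 at 18510749 to 18520788 (score 1679, 10040 bp wide) followed a stretch of 3100 kb without a peak. That on chromosome 6 at 58773079 to 58780316 (score 1559) came before one of 3130 kb. The others were on chromosome 15 at 74218853 to 74220377 (score 2603) and on chromosome 10 at 42596539 to 42601913 (score 1054). The header of this list names no input, and the part of background signal in these values was not tested.

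Clustering was found on every autosome. The share of gaps of at most 10 kb was above that of random positions on each of the 22 autosomes, from 1.72-fold on chromosome 4 to 4.03-fold on chromosome 16. With random positions at the density of the own 1 Mb window the range was 1.24-fold, on chromosome 13, to 2.43-fold, on chromosome 16. The share of peaks in clusters rose with the number of peaks per Mb (Spearman 0.87 over 22 chromosomes of one library), as it does at random positions, while the ratio to random fell (-0.63). The highest possible ratio also falls as the random share rises.

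Chromosome 19 had the highest share of peaks in clusters, 74.9% of 2123 (95% Wilson interval 73.1 to 76.7). Random positions at its density gave 52.7%. The median gap on chromosome 19 was 7.84 kb. Its gaps of at most 10 kb were 1.78-fold more frequent than at random, and 1.26-fold at the density of the own window. Both ratios were near the lowest of the 22 autosomes (1.72 and 1.24). A ratio has less room to rise where the random share is high. Of the gaps on chromosome 19, 55.7% were at most 10 kb, against 31.2% at random. In percentage points, its clustered share stood 22.2 above the random value. Chromosome 19 held 5.60% of the autosomal peaks but 8.61% of the clustered ones, on 2.11% of the span, and 20 of the 87 clusters of 10 or more peaks. Chromosome 17 followed with 60.9% of 1739 peaks (58.6 to 63.2) and chromosome 20 with 59.4% of 1047 peaks (56.4 to 62.3), whose intervals overlap. Chromosome 20 stood 30.7 percentage points above its random value, the largest distance of the 22, and chromosome 17 25.5 points.

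Lowest were chromosome 15 with 30.1% of 605 peaks (26.6 to 33.9), chromosome 13 with 31.8% of 947 (28.9 to 34.8) and chromosome 22 with 37.1% of 259 (31.4 to 43.1). None of these held a cluster of more than 5 peaks. Chromosome 13 was also the nearest to its random value, 13.8 points above it. Chromosome 16 was the sparsest, with 6.35 peaks per Mb, yet had 41.1% of its 572 peaks in clusters, against 11.9% at random. Chromosome 4 was the opposite case: it was dense, with 17.8 peaks per Mb, but had 47.5% in clusters against 30.4% at random, and 1 cluster of 10 or more, where chromosome 6 had 13 at 19.4 peaks per Mb.

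**Figure D4:**
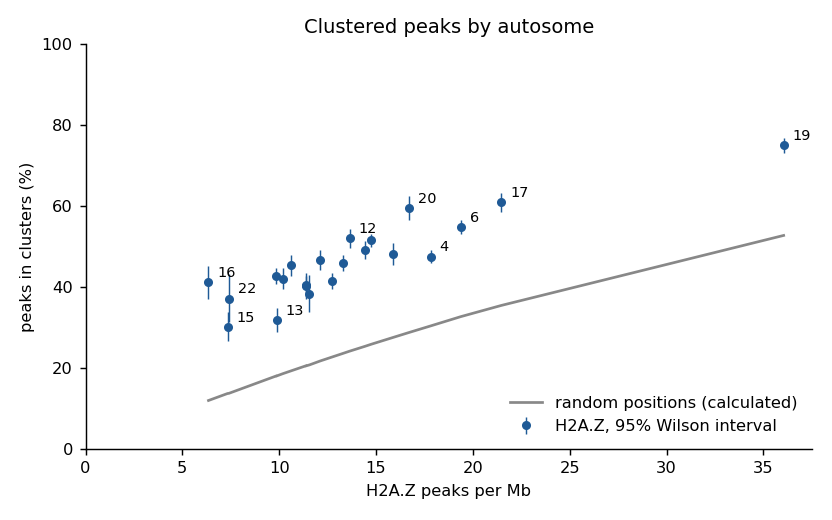
Share of H2A.Z peaks in clusters (y axis, %) against peaks per Mb (x axis) for the 22 autosomes, with 95% Wilson intervals as bars, some numbered, and the share calculated for random positions as a grey line. All points lie above the line, from 30.1% on chromosome 15 to 74.9% on chromosome 19.

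In windows of 1 Mb, counted from the start of each chromosome, peaks were spread far more unevenly than at random. Over 2889 windows the mean was 13.1 peaks and the variance 11.6 times the mean, where counts of random positions at one density give 1. The median window held 10 peaks and the fullest 115. More than 40 peaks lay in 108 windows, against 11.6 by calculation. No peak lay in 193 windows, 83 of them before the first peak of a chromosome, against 0.884 by calculation over all windows. Whether peaks could be called in the empty windows was not tested. Clustered peaks were found in 1929 windows (66.8%), and 767 windows held single peaks only.

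**Figure D5:**
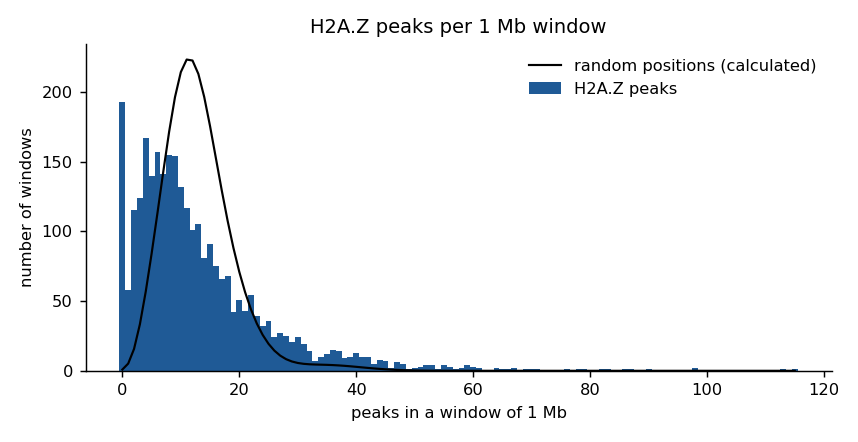
Number of 1 Mb windows (y axis) by the number of H2A.Z peaks they hold (x axis), as bars, with the number calculated for random positions on each chromosome as a line. The bars exceed the line at 0 and in the long tail that ends at 115 peaks, and lie below it around 13.

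The 10% of windows with the most clustered peaks (289 windows, each with at least 17) held 46.9% of all clustered peaks. They held 30.9% of all peaks. Chromosome 19 had 27 of these among its 60 windows, chromosome 17 had 25 of 82, chromosome 20 had 12 of 63 and chromosome 6 had 31 of 171. Chromosomes 15, 16, 21 and 22 had none.

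Of the 10 windows with the most clustered peaks, 9 were on chromosome 19. The windows at 13 to 14 Mb and 14 to 15 Mb held 105 clustered peaks each, of 113 and 115 peaks in all. Those at 18, 17 and 16 Mb held 92, 89 and 83 clustered peaks. The window on chromosome 12 at 122 to 123 Mb was the exception, with 78 clustered of 86 peaks. Next outside chromosome 19 came chromosome 6 at 27 to 28 Mb (68 of 78), chromosome 6 at 42 to 43 Mb (67 of 76) and chromosome 1 at 28 to 29 Mb (63 of 70).

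Windows rich in clusters lay side by side. The number of clustered peaks in a window had a Spearman correlation of 0.45 with that in the next window (2867 pairs of windows, not independent), of 0.22 at 5 windows and 0.12 at 20 windows. Of the 289 windows, 160 were in 56 rows of 2 or more. The longest row was chromosome 19 from 6 to 20 Mb, where 969 of 1109 peaks (87.4%) formed 200 clusters, at 79.2 peaks per Mb. Gaps of at most 10 kb in this row were 1.16 times as frequent as at random positions of the own window. The next were chromosome 6 from 30 to 38 Mb (322 of 380 peaks clustered, 84.7%), chromosome 19 from 45 to 51 Mb (228 of 296) and chromosome 4 from 60 to 66 Mb (188 of 279).

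The rows differed in how their peaks were arranged at like density. On chromosome 6 from 30 to 38 Mb, with 47.5 peaks per Mb, the median gap was 4.70 kb, a cluster had a mean of 4.18 peaks, and gaps of at most 10 kb were 1.59 times as frequent as at random positions of the own window. On chromosome 4 from 60 to 66 Mb, with 46.5 peaks per Mb, the median gap was 13.2 kb, a cluster had a mean of 2.65 peaks and at most 7, and the ratio was 1.09. The rows on chromosome 4 from 28 to 33 Mb (1.11), chromosome 3 from 82 to 86 Mb (1.104) and chromosome 6 from 66 to 71 Mb (1.12) were close to the latter. In these 4 rows peaks were frequent but lay nearly as at random within their windows. Median scores were similar, with 81.7 on chromosome 6 from 30 to 38 Mb and 87.4 on chromosome 4 from 60 to 66 Mb.

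Width and score also moved with the density of the window. The 2696 windows with a peak were divided into 10 groups by their number of peaks. In the sparsest group (1 to 3 peaks) the median width was 686 bp and the median score 59.9, and in the densest (29 to 115 peaks) 898 bp and 73.6. Single peaks followed this too, from 683 bp in the sparsest group to 845 bp in the densest. Single peaks of the densest group were thus wider than clustered peaks of the sparsest (726 bp). The latter were few, at 6.56% of the 579 peaks of that group. Within the densest group clustered peaks had a median width of 922.5 bp and a score of 75.9, against 845 bp and 68.9 for single peaks. Of the gaps in the sparsest group, 3.34% were at most 10 kb, against 1.40% at the window's own density (2.38-fold). In the densest group it was 50.8% against 37.5% (1.36-fold). The ratio was thus higher in the sparsest group, but the excess in percentage points was larger in the densest. A ratio has less room to rise where the random share is high. The density came from the other peaks of a window, which a window with 1 peak lacks. The ratios therefore do not show that clustering was stronger in sparse windows.

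Long stretches without an H2A.Z peak were more frequent than at random as well. There were 97 of 1 Mb or more, 211.6 Mb in all, against 1.75 by calculation. The calculation spread peaks over all sequence between the outermost ones, and whether peaks could be called in these stretches was not tested. The longest, on chromosomes 1 (21.1 Mb), 9 (18.2 Mb), 16 (11.2 Mb), 20 (3.497 Mb) and 4 (3.44 Mb), lie about the centromeres. With random positions placed only outside the 97 stretches, the excess of gaps of at most 10 kb was 1.996-fold.

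Beside the other libraries of the series, cut to their 37895 best-scoring autosomal peaks, the excess of H2A.Z at 10 kb was of like size. Gaps of at most 10 kb were then 2.23-fold more frequent than at random for H2A.Z, 2.06-fold and 2.13-fold for the 2 H3K4ox libraries and 2.21-fold for RUVBL2. Gaps of at most 1 kb made up 7.06% for H2A.Z, and 13.2%, 14.6% and 12.5% for the others, whose best peaks were also wider (median of single peaks 1898, 1798 and 1429 bp, against 771 bp). The largest cluster held 21 peaks for H2A.Z, 75 and 81 for H3K4ox and 45 for RUVBL2. Over all their autosomal peaks, which are more numerous (247720, 242310 and 105560), the excess at 10 kb was 1.13-fold for both H3K4ox libraries and 1.44-fold for RUVBL2, and 87.7%, 87.3% and 71.1% of peaks were clustered, against 48.8% for H2A.Z. The comparison thus depends on the cut by score, and a cut raised the excess within the H2A.Z list too, to 3.18-fold in its upper 50%. With 1 H2A.Z library these differences were not tested.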

How the data were processed

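One deposited peak list, that of the H2A.Z library, was analysed, and the H3K4ox (2) and RUVBL2 (1) lists were used for one comparison. Peak names in the deposited list hold the word MACS, the name of a peak caller. Its version and settings and the sense of the header word multilocus are points not given in the sources used here. Per the submitters' processing notes the build is hg19, and Bowtie and TopHat were among the tools (no versions). The score of each peak is the authors' deposited value of unknown unit, and its differences and ratios are used only within a list. Read depth is unknown.

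Positions, counted from 1, were analysed with scipy 1.17.1, pandas 2.3.3 and numpy 2.4.6 under Python 3.11.15. Plots were drawn with matplotlib 3.10.9. Neighbours at gaps of at most 10 kb formed a cluster. Random values were calculated, not drawn: from the exact law of spacings for peaks of the same widths spread uniformly between the outermost peaks of a chromosome, from exponential gaps at the density of the other peaks in the own 1 Mb window, from the distance law of 2 uniform points for pairs, from the product of the single-gap probabilities for cluster sizes, and from Poisson counts per chromosome for windows. The laws for short gaps, single peaks and the number of clusters were tested on simulated peaks spread uniformly along each chromosome. The law at the density of the own window was not tested on peaks of uneven density. Those for pairs, cluster sizes and windows were not tested on simulated data. Intervals are Wilson intervals at 95% and treat peaks as independent. No p-value was computed, since there was 1 library.

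Sites were named by rule: the 10 clusters with the most peaks, the 3 longest, the 5 with the best score, the 5 best single peaks, the 10 fullest windows, 3 chromosomes at either end and the 5 longest stretches without peaks. Windows outside chromosome 19, rows of windows, peaks of score 600 or more, nearly touching peaks and the spacing of the other lists were added after seeing the data. Members, rules and settings were chosen with earlier results of these data known.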

Additional observations from a re-analysis of the deposited data

How the results depend on the processing

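No direction reversed in the 48 other settings: short gaps and clustered peaks exceeded random, and clustered peaks were wider and scored higher. The settings for the densest windows could not reverse, since those windows were picked by their count of clustered peaks. Chromosome 19 was picked as the chromosome with the most peaks per Mb, and the clustered share rises with density at random positions too. In 13 settings the value stayed within the 95% interval of the reported one. The excess of close neighbours was 2.84-fold at a gap of 5 kb, 1.73-fold at 20 kb, 1.26-fold at 50 kb, 3.18-fold in the upper 50% by score, 1.996-fold outside peak-free stretches, 1.55-fold at the density of the own window, 2.03-fold with neighbours within 1 kb merged, 2.29-fold without chromosome 19, 1.97-fold without 1 Mb beside peak-free stretches and chromosome ends, and 2.14-fold from centre to centre. In that order, peaks in clusters exceeded random by 20.6, 19.7, 7.53, 24.7, 19.98, 13.9 and 18.1 percentage points, then by 19.9 points without the 1 Mb edges and by 20.9 from centre to centre, against 22.6 in the report. The share of clustered peaks wider than the median single peak was 66.6% at a gap of 50 kb. The share scoring above it was 62.1% at 50 kb, 59.2% in the upper 50% by score and 53.1% among peaks of 700 to 900 bp. Outside these settings, in the bands of width from 900 bp up, it was 48.6%, 48.3%, 43.5% and 44.6%, so that clustered peaks there scored lower. Chromosome 19 held 9.75% of clustered peaks at 5 kb, 7.39% at 20 kb, 6.43% at 50 kb and 10.8% in the upper 50% by score. The densest 10% of windows held 50.9%, 42.3% and 37.0% at gaps of 5, 20 and 50 kb, 59.3% in the upper 50% by score, 52.9% in windows of 500 kb, 36.4% in windows of 5 Mb, 45.1% without windows that hold no peak and 45.3% without chromosome 19. Changes with the gap follow from its definition, and the other causes were not tested. The upper 50% by score has fewer peaks and so a lower random share. No paired analysis was possible because there was 1 H2A.Z library. Unknown depth limits the list, since weaker sites between peaks may be missing.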

Other observations

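The tightest of the 10 largest clusters, on chromosome 1 at 228744140 to 228782974, had peak starts in steps of few lengths. Its 17 peaks give 16 steps from start to start. Of these, 7 were 937 to 1319 bp long (mean 1131 bp), 3 were 2106 to 2357 bp (2251 bp), 4 were 3196 to 3594 bp (3359 bp) and 2 were 4267 to 4642 bp (4455 bp), with no step between these groups. The means of the longer groups were 1.99, 2.97 and 3.94 times that of the shortest. Whether the peaks lie in copies of a repeated sequence was not tested. The cluster was looked at after its values were seen.

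On chromosome 3, the wide spread of score within the cluster at 190572892 to 190579066 resembled that on chromosome 5 at 126110078 to 126113961. In both, 1 peak of 1021 or 1011 bp scored above 2000, and the other peaks, within 2 kb of a neighbour, scored between 63.1 and 267.7.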
